A study of Mus musculus with 12 samples.

Results

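The NR4A and EGR transcription factors were followed through all 12 libraries of cultured mouse cortical neurons: Nr4a1, Nr4a2 and Nr4a3, and Egr1, Egr2, Egr3 and Egr4. The 7 genes were taken by symbol from the 51912 genes of the deposited table, and each symbol matched a single row. Neurons were dissociated from the cortex of C57BL/6J embryos at E17.5, plated, left for 3 h in a medium with serum and for 1 h in a serum-free medium, and then given erinacine S or DMSO. The 4 groups, with 3 libraries each, were DMSO (the solvent control) for 16 h, 1 µg/mL erinacine S for 16 h, DMSO for 48 h and 1 µg/mL erinacine S for 48 h. Erinacine S is a natural product of the lion's mane mushroom (Hericium erinaceus), found in its mycelium. The labels call the repeats independent and do not say what was repeated, so a p-value here measures only how far these libraries differ, and that may be technical. Expression is given in TPM, a unit of transcript abundance scaled for library size and transcript length, so that levels can be set side by side between genes.

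Both families are immediate early genes: synaptic activity, calcium entry or growth factors switch them on within minutes, from transcription factors already present in the cell, and their messenger RNA is short-lived. NR4A proteins are nuclear receptors without a known conventional ligand that bind DNA as monomers at the NBRE element, as dimers, or, for NR4A1 and NR4A2, together with a retinoid X receptor. EGR proteins are zinc finger factors that bind GC-rich sites, and the NAB proteins bind to EGR1, EGR2 and EGR3 and repress them. In neurons both families sit between activity and slower changes at synapses. Calcium signals reach their promoters through CREB at the cyclic AMP response element and through the serum response factor (SRF) at the CArG box.

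The sequences just upstream of the starts are shown because genes of both families were lower in the erinacine S libraries at 48 h. CREB and SRF are the known routes to these genes. RefSeq promoter entries (GRCm38.p6) were found for 5 of the 7 genes. Below is the stretch of the 250 bases before the start that lies outside every annotated exon, read 5′ to 3′ on the gene's strand, with TGACG and its complement CGTCA, the core of the cyclic AMP response element, and any CArG box in capitals.
Nr4a1, chr15:101266596-101266845, + strand: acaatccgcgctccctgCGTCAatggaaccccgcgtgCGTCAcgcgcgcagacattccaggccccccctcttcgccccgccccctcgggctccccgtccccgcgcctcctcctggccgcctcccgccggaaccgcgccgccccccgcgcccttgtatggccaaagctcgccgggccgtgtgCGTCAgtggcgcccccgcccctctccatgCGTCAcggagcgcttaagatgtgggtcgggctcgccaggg
Nr4a2, chr2:57124004-57124253, - strand: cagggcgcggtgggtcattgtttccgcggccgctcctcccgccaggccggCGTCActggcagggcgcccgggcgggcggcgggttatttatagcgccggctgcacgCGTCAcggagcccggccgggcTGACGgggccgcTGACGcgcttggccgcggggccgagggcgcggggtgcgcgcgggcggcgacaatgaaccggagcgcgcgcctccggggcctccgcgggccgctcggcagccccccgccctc
Nr4a3, chr4:48045055-48045152, + strand: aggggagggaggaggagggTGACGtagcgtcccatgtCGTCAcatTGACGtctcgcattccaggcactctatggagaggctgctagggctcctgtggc
Egr4, chr6:85513590-85513839, - strand: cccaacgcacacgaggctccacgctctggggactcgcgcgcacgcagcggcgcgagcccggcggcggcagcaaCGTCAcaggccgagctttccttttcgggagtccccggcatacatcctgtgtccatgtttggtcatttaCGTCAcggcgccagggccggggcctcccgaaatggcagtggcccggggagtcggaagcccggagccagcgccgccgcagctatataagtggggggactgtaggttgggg
Egr2, chr10:67537619-67537868, + strand: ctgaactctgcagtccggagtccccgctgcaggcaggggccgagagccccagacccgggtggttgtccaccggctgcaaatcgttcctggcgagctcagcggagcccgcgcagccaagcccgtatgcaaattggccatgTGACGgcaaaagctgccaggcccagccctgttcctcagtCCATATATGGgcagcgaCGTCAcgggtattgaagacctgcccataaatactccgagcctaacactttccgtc
Nr4a1 and Nr4a2 each held 4 core matches on either strand, Nr4a3 held 3 in the 98 bases shown and 4 in the whole 250 bases before its start, and Egr4 held 2. Egr2 has 5 annotated starts: the 250 bases before 3 of them overlap and held 2 core matches around a CArG box, and those before the other 2 held 0, one of them with a CArG box. The Egr2 stretch shown, inside the gene but outside its exons, was picked from the 3 with matches. Of 32851 RefSeq windows of 250 bases, 17.8% held at least 1 TGACG on either strand, 3.90% at least 2 and 0.688% at least 3. A CArG box stood in 1.47% of the windows. The full palindrome TGACGTCA, which contains the core on both strands, stood in 1.55% of the windows and in none of these 5 genes' windows. The EGR site GCGNGGGCG was matched once in the windows of Nr4a1 and of Nr4a2, against 4.70% of all windows, and the NBRE AAAGGTCA, in 1.34% of all windows, was matched in none. A match of letters is a description and not evidence of binding.

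Neuronal markers were present in every library, with a summed level over 8 genes of 2639 to 4516 TPM. Of these, Tubb3 alone had a mean of 2411 TPM over all libraries, and sums over different genes do not measure shares of cells. Markers of other cells that a cortical culture can hold were also present: 8 radial glia and progenitor genes summed to 244 to 794 TPM, 8 oligodendrocyte lineage genes to 66.5 to 233 TPM, 8 astrocyte genes to 49.3 to 132 TPM and 9 microglial genes to 1.301 to 39.3 TPM. At 48 h the microglial sum was 16.3 to 23.2 TPM in DMSO and 1.301 to 8.69 TPM in erinacine S, the oligodendrocyte lineage sum was 200.9 to 233 TPM in DMSO and 66.5 to 187 TPM in erinacine S, and the neuronal sum was 4102 to 4516 TPM in DMSO and 4077 to 4153 TPM in erinacine S. Replicate 1 of erinacine S at 48 h stood apart from the other two of its group, with astrocyte markers at 49.3 TPM against 130 and 132 TPM and dividing cell markers at 38.5 TPM against 118 and 123 TPM. For the 7 genes, both values are given where leaving it out changed a call or a direction, or moved a change by over 1.5 times. Without it the microglial sum in erinacine S at 48 h was 7.28 to 8.69 TPM and the oligodendrocyte lineage sum 174 to 187 TPM, still under all 3 DMSO libraries.

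In DMSO at 16 h the genes covered a wide range of levels in TPM. Nr4a3 was highest at 58.9 ± 16.6 TPM (SD, n = 3, as for all values with ± below), followed by Nr4a1 at 25.3 ± 3.26, Nr4a2 at 15.0 ± 2.01, Egr1 at 11.3 ± 0.549, Egr3 at 4.03 ± 0.865, Egr4 at 1.28 ± 0.710 and Egr2 at 1.01 ± 0.273 TPM. The libraries of neighbours in this order did not overlap except those of Egr4 and Egr2. In DMSO at 48 h the order of means was the same, with overlaps between Nr4a2 and Egr1 and between Egr3 and Egr4. In erinacine S at 48 h Nr4a2 (12.3 ± 4.02 TPM) came above Nr4a1 (10.4 ± 2.61 TPM), although their libraries overlapped, as did those of Egr1 with Egr3 and of Egr4 with Egr2.

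**Figure D1:**
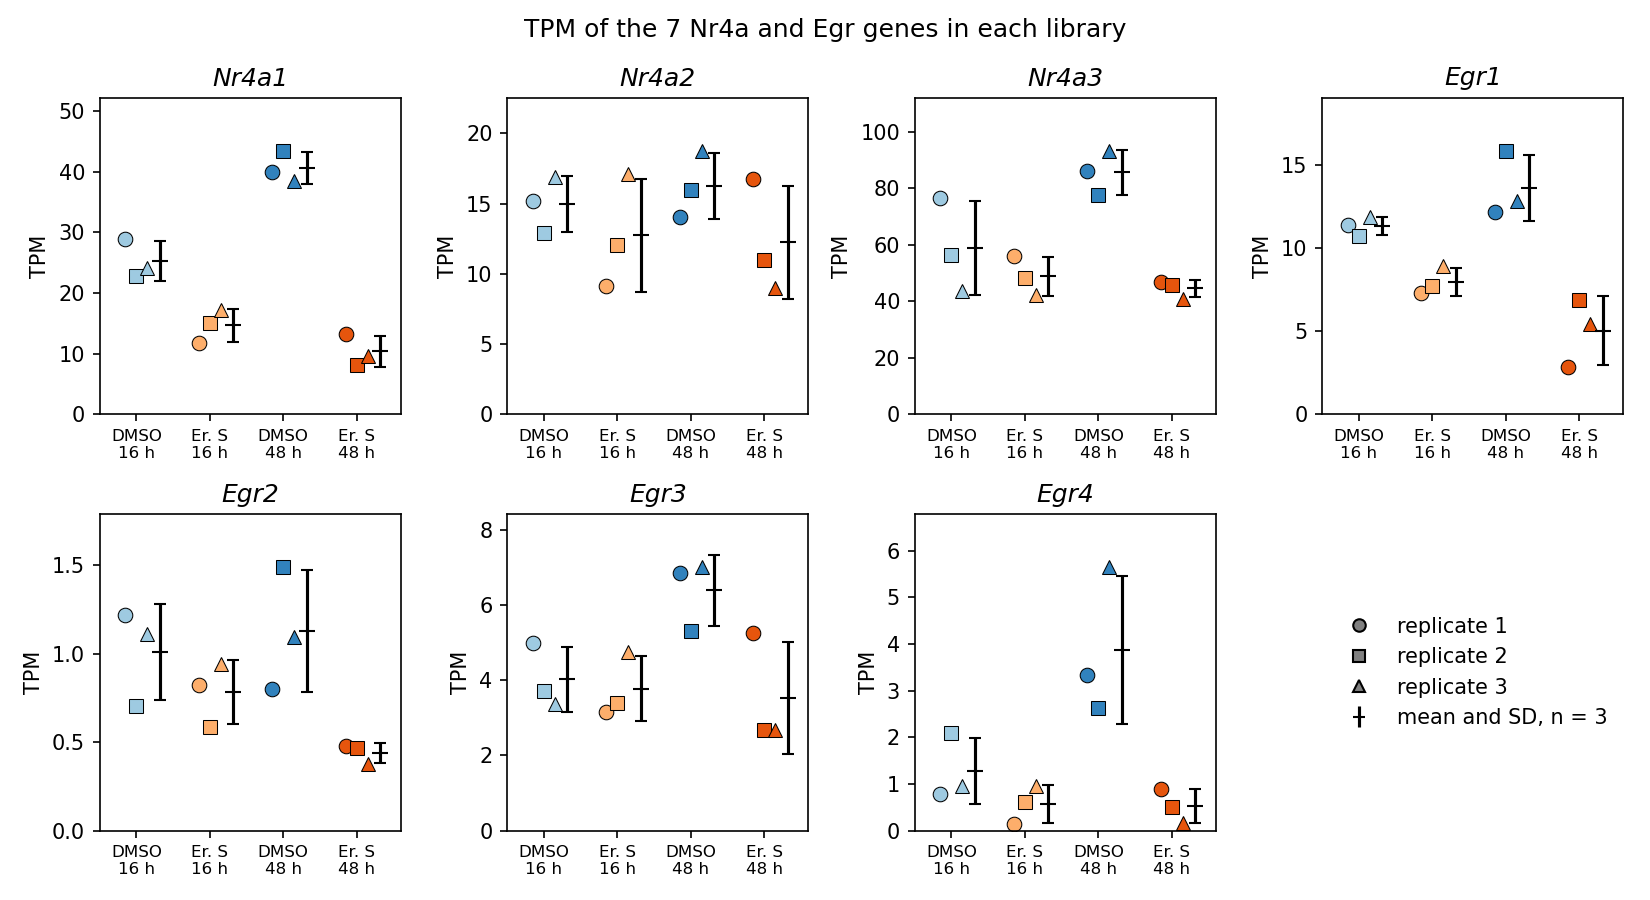
TPM of the 7 genes (vertical axis of each panel, from 0, with its own scale) in the 4 groups (horizontal axis). Each symbol is a library, its shape the replicate number, and the bar gives the mean and SD of 3 libraries. The DMSO 48 h libraries lie above the erinacine S 48 h libraries for every gene but Nr4a2.

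Of the 7 genes, Nr4a1 had the most negative log2 change of TPM + 1 under erinacine S at 48 h (Nur77; ENSMUSG00000023034, chr15:101266846-101274792, + strand). Its levels were 39.97, 43.4 and 38.4 TPM in DMSO and 13.3, 8.20 and 9.64 TPM in erinacine S, in the order of the replicate numbers. No treated library came near a control, and the treated mean was 25.5% of the DMSO mean. The log2 fold change of TPM + 1 was -1.89 ± 0.17 (SE), with an adjusted p of 0.000664 (limma). Nr4a1 passed in each of the alternatives run, with changes from -1.58 to -2.12. Without erinacine S 48 h replicate 1 the change was -2.07.

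Nr4a3 (NOR-1; ENSMUSG00000028341, chr4:48045153-48086447, + strand), the most abundant of the 7, was also lower at 48 h without passing the test. It stood at 86.2, 77.6 and 93.4 TPM in DMSO and at 46.8, 45.9 and 41.0 TPM in erinacine S. The groups did not overlap, and the treated mean was 52.0% of the DMSO mean. The log2 change was -0.93 ± 0.17 (SE) with an adjusted p of 0.0624 (limma). Nr4a3 passed in 3 of the 12 fits that left out a library, where the adjusted p ran from 0.0179 without DMSO 16 h replicate 1 to 0.291 without DMSO 48 h replicate 1 (limma); the others that passed were those without DMSO 16 h replicate 3 (0.0227) and without erinacine S 48 h replicate 1 (0.0493). It also passed with median-ratio scaling (adjusted p 0.0451, limma), quantile normalization (0.0438), library weights, only the 48 h libraries (0.0215) or a replicate block within each time (0.0164). Nr4a2 (Nurr1; ENSMUSG00000026826, chr2:57106830-57124003, - strand), a factor that midbrain dopamine neurons need to form, had overlapping groups: 14.0, 16.0 and 18.8 TPM in DMSO and 16.7, 11.01 and 9.001 TPM in erinacine S. The high treated value was that of replicate 1. Its log2 change was -0.41 (95% interval -0.91 to 0.09), with an adjusted p of 0.639 (limma), and -0.65 with an adjusted p of 0.333 without replicate 1 of erinacine S 48 h. Of the alternatives run, only library weights made Nr4a2 pass.

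Among the Egr genes, Egr1 fell (Zif268; ENSMUSG00000038418, chr18:34859823-34864984, + strand), a widely used marker of recent neuronal activity. Its levels at 48 h were 12.2, 15.9 and 12.8 TPM in DMSO and 2.83, 6.89 and 5.41 TPM in erinacine S. All 3 treated libraries lay under all 3 controls, with replicate 1 lowest. The treated mean was 37.0% of the DMSO mean and the log2 change -1.33 ± 0.21 (SE), with an adjusted p of 0.0413 (limma). The call was near the threshold and was lost in 10 of the 12 fits that left out a library, with adjusted p-values up to 0.175 (limma). The 2 that kept it were those without erinacine S 48 h replicate 1 (log2 change -1.03, adjusted p 0.00592) and without erinacine S 48 h replicate 2 (-1.55, adjusted p 0.0146). Over all 25 alternatives run the call was lost in 14, with the highest adjusted p, 0.229 (limma), with only the 48 h libraries.

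Egr4 (ENSMUSG00000071341, chr6:85511121-85513589, - strand), a factor needed for male fertility in mice, had the largest ratio of means of the 7. It stood at 3.34, 2.63 and 5.65 TPM in DMSO at 48 h and at 0.898, 0.496 and 0.166 TPM in erinacine S, and the treated mean was 13.4% of the DMSO mean. The groups did not overlap, the log2 change was -1.66 ± 0.29 (SE) and the adjusted p was 0.0573 (limma), which became 0.0241 without erinacine S 48 h replicate 1. Egr4 reached the mean of 1 TPM needed for testing only through its DMSO 48 h libraries, and had a mean of 0.789 TPM over the other groups, so a gene chosen this way had to differ from that group. It is left out of the counts below that involve DMSO at 48 h, except in the section on processing, which says where Egr4 is counted.

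Egr3 (ENSMUSG00000033730, chr14:70077445-70080157, + strand), which takes part in muscle spindle development and in memory, was at 6.86, 5.31 and 7.02 TPM in DMSO and at 5.26, 2.68 and 2.66 TPM in erinacine S. Here too replicate 1 was the highest treated library, just under the lowest control. The log2 change was -0.75 ± 0.22 (SE) with an adjusted p of 0.300 (limma), and -1.003 with an adjusted p of 0.0326 without that library. Egr2 (Krox20; ENSMUSG00000037868, chr10:67535475-67542188, + strand), a factor for hindbrain patterning and Schwann cell myelination, had a mean of 0.840 TPM over all libraries, too low to be tested with the rest. It was listed at 0.800, 1.49 and 1.10 TPM in DMSO and at 0.476, 0.467 and 0.374 TPM in erinacine S, without overlap, and the exact two-sided permutation p was 0.1, the smallest that 3 libraries against 3 can give.

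At 48 h, therefore, Nr4a1 and Egr1 passed out of the 5 genes counted, and 0.115% of the 15623 genes tested were lower by the same rule. Of these 5, Nr4a1, Nr4a3, Egr1 and Egr3 had libraries that did not overlap, with erinacine S lower, as did 8.74% of the genes tested. The libraries of Egr4 and Egr2, which are not counted, did not overlap either. The median log2 change of the 5 genes was -0.93, and that of the genes tested was 0.01. Without erinacine S 48 h replicate 1, 4 of the 5 passed, all but Nr4a2, as did 0.685% of the genes tested in that direction. The microglial and oligodendrocyte lineage sums of the same libraries moved with these values, and their part in the result was not tested. Of the tested markers, 4 of 5 microglial and 6 of 7 oligodendrocyte lineage ones were lower without overlap (median log2 changes -1.30 and -0.42). Without erinacine S 48 h replicate 1 these medians were -0.997 and -0.23. In RNA from whole cultures, fewer cells of a type and less RNA per cell cannot be told apart.

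**Figure D2:**
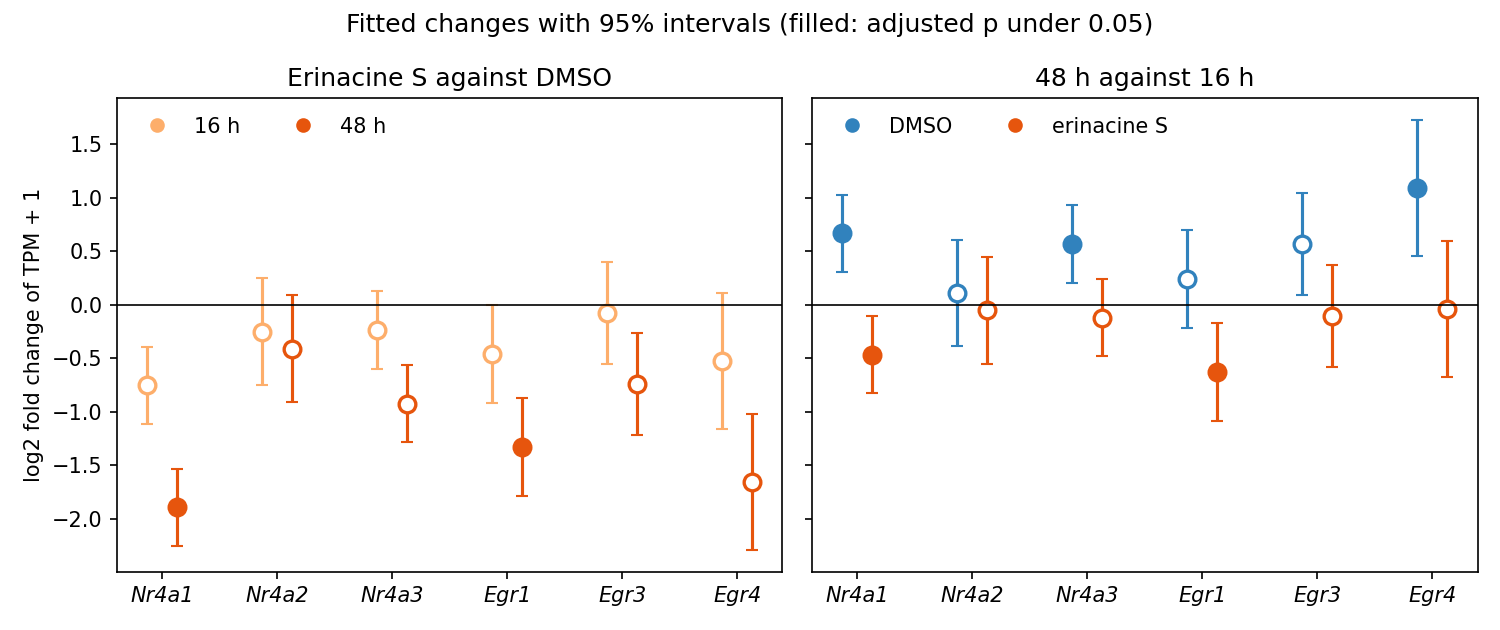
Log2 fold change of TPM + 1 (vertical axis) for the 6 tested genes (horizontal axis), erinacine S against DMSO at 16 h and 48 h (left), and the change from 16 h to 48 h with DMSO and with erinacine S (right). Points are limma estimates, bars 95% intervals and filled points an adjusted p under 0.05. The 48 h effects lie below the 16 h effects for all 6 genes, and the time changes are above 0 in DMSO and below 0 in erinacine S.

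At 16 h no gene of the 7 passed, nor did any of the 15623 tested (0%, with 1.29% at an unadjusted p under 0.05). Nr4a1 was at 29.0, 22.8 and 24.0 TPM in DMSO and at 11.7, 15.0 and 17.2 TPM in erinacine S. Egr1 was at 11.4, 10.8 and 11.9 TPM in DMSO and at 7.31, 7.70 and 8.94 TPM in erinacine S. These 2 genes did not overlap between groups, with erinacine S lower, as did 1.56% of the genes tested. Their log2 changes were -0.76 ± 0.17 (SE) for Nr4a1 and -0.46 ± 0.21 (SE) for Egr1, with adjusted p-values of 1.00 (limma) and unadjusted ones of 0.00065 and 0.0498. The microglial markers at 16 h summed to 20.7 to 39.3 TPM in DMSO and 24.4 to 36.6 TPM in erinacine S.

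The other 5 genes overlapped between the groups at 16 h. Nr4a3 was at 76.5, 56.6 and 43.7 TPM in DMSO and at 56.0, 48.2 and 42.4 TPM in erinacine S. Nr4a2 was at 15.2, 12.9 and 16.9 TPM in DMSO and at 9.11, 12.02 and 17.1 TPM in erinacine S. Replicate 1 was the highest of both groups for Nr4a3, and replicate 3 for Nr4a2. The treated mean was 82.9% of the DMSO mean for Nr4a3 and 85.0% for Nr4a2. Egr3 ranged from 3.36 to 5.00 TPM in DMSO and from 3.16 to 4.76 TPM in erinacine S, Egr4 from 0.779 to 2.09 and from 0.149 to 0.944 TPM, and Egr2 from 0.701 to 1.22 and from 0.584 to 0.943 TPM.

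The treatment effect was more negative at 48 h than at 16 h for the 5 genes counted, and for Egr4 and Egr2, which are not counted. The difference between the effects was -1.14 ± 0.23 (SE) for Nr4a1, -1.14 ± 0.41 for Egr4, -0.87 ± 0.30 for Egr1, -0.69 ± 0.23 for Nr4a3, -0.67 ± 0.31 for Egr3 and -0.16 ± 0.32 for Nr4a2 on the log2 scale. None passed after adjustment (adjusted p 1.00 for each, limma), and no gene tested did (0%). Of the 5 genes without Egr4, Nr4a1, Nr4a3 and Egr1 had an unadjusted p under 0.05, as did 2.77% of the genes tested. Without erinacine S 48 h replicate 1 the difference was -0.39 for Nr4a2 and -0.57 for Egr1.

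In the control cultures Nr4a1 and Nr4a3 rose between 16 h and 48 h. Nr4a1 rose by 0.67 ± 0.17 (SE) on the log2 scale (adjusted p 0.00957, limma) and Nr4a3 by 0.57 ± 0.17 (adjusted p 0.0216, limma). These were 2 of the 5 counted, against 16.1% of all genes tested that rose. Of the 12 fits that left out a library, 12 kept Nr4a1 and 8 kept Nr4a3, whose adjusted p ran up to 0.0777 (limma). Egr4 changed by 1.09 ± 0.29 (adjusted p 0.0141, limma), which the filter favoured. Egr3 and Egr1 also had non-overlapping libraries, higher at 48 h, but did not pass, with log2 changes of 0.56 (adjusted p 0.0672, limma) and 0.24 (adjusted p 0.409, limma). Non-overlap in that direction was seen for 24.1% of the genes tested. Nr4a2 stayed within its own spread at a log2 change of 0.11 (95% interval -0.39 to 0.61). Without DMSO 48 h replicate 3, the library with the highest Egr4 and Nr4a3 levels, Nr4a1 alone passed, and without erinacine S 48 h replicate 1 Egr3 passed as well (adjusted p 0.0179, limma).

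In erinacine S none of the 6 tested genes rose over the same interval. Nr4a1 fell by 0.47 on the log2 scale (adjusted p 0.0492, limma), although its libraries at 48 h overlapped those at 16 h, and Egr1 fell by 0.63 (adjusted p 0.0403, limma) without overlap. These were 2 of the 6 tested, against 15.5% of genes tested that fell, and most fits that left out a library lost them: of 12, 2 kept Nr4a1 and 5 kept Egr1, never both. Without erinacine S 48 h replicate 1, Nr4a1 passed with -0.65 (adjusted p 0.00966, limma) and Egr1 did not, with -0.33 (adjusted p 0.0924, limma). Egr2 was also lower at 48 h without overlap, from a mean of 0.783 ± 0.183 to 0.439 ± 0.0565 TPM, as were 23.7% of the genes tested. The log2 changes of Nr4a2, Nr4a3, Egr3 and Egr4 lay between -0.12 and -0.04, with adjusted p-values from 0.603 to 0.928 (limma), and between -0.36 and -0.16 without that library.

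Summed over its 3 genes, the Nr4a family stood at 143 ± 7.07 TPM in DMSO and 67.2 ± 8.80 TPM in erinacine S at 48 h, or 47.1% of the control. The 4 Egr genes together stood at 25.03 ± 1.72 TPM and 9.54 ± 0.960 TPM, or 38.1% of the control. At 16 h the sums were 99.2 ± 19.0 and 76.2 ± 0.885 TPM for Nr4a and 17.6 ± 0.637 and 13.1 ± 2.19 TPM for Egr. All 4 of these contrasts had no overlap and an exact two-sided permutation p of 0.1, the smallest possible here. Within the Nr4a sum at 48 h the share of Nr4a1 was 28.6 ± 3.11% in DMSO and 15.3 ± 2.45% in erinacine S, and that of Nr4a2 was 11.4 ± 1.25% and 17.9 ± 3.46%, both without overlap (exact permutation p 0.1). The share of Nr4a3 was 60.1 ± 2.97% and 66.7 ± 5.09%, with overlap (exact permutation p 0.3), and 69.6% without replicate 1 of erinacine S 48 h, then above all 3 DMSO libraries. Within the Egr sum the share of Egr4 was 15.3 ± 5.50% in DMSO and 5.37 ± 3.82% in erinacine S (exact permutation p 0.1). Without replicate 1 the Egr4 share was 3.32%. That of Egr1 was 54.5 ± 7.44% and 52.7 ± 19.8% (exact permutation p 1.0). The 3 erinacine S libraries were at 29.9, 65.4 and 62.8%, and without replicate 1 the direction turned: the mean of the other two, 64.1%, was above DMSO.

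**Figure D3:**
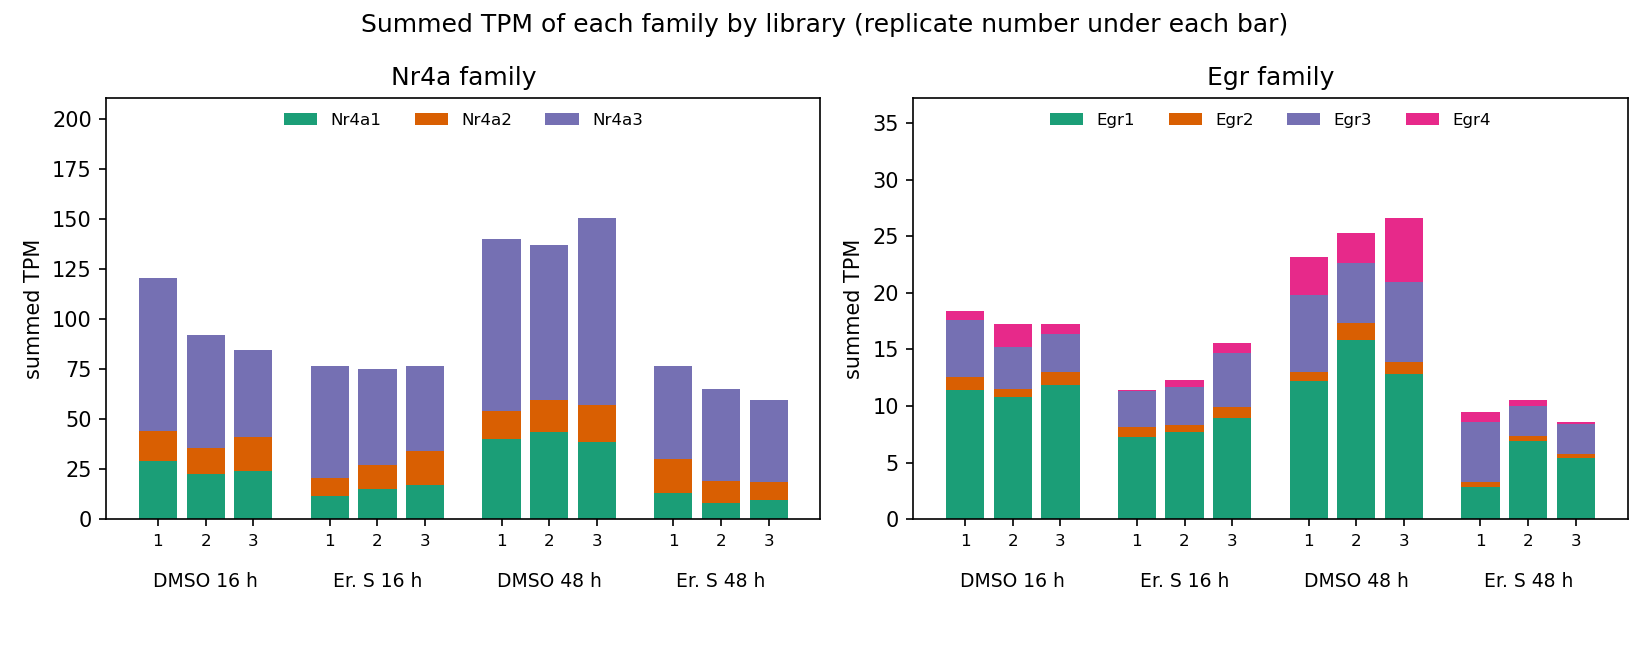
Summed TPM (vertical axis, from 0) of the 3 Nr4a genes (left) and the 4 Egr genes (right) in each library, stacked by gene, with the replicate number under each bar. In erinacine S at 48 h both sums lie under those of all 3 DMSO 48 h libraries, and the Egr1 part of replicate 1 is the smallest.

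Over the 12 libraries each gene was set beside the tested genes outside both families, and the 3 with the highest Pearson r of log2(TPM + 1) were named. The libraries fall into the same 4 groups for every gene, so r reflects the group pattern and is given as a description. Nr4a1 was matched most closely by Npas4 (r = 0.994), Fos (0.981) and the long noncoding RNA Gm3294 (0.953). The mean of Npas4, an activity-dependent transcription factor, was 26.0 ± 2.32 and 15.9 ± 3.48 TPM at 16 h and 38.4 ± 0.453 and 12.02 ± 2.59 TPM at 48 h in DMSO and erinacine S, next to 25.3 and 14.6 TPM and 40.6 and 10.4 TPM for Nr4a1. Egr1 was nearest to Arc (0.939), Myo1e (0.925) and Hk2 (0.912). Egr4 was nearest to Crh (0.938), Vgf (0.921) and Gm26935 (0.903), Egr3 to Cbln4 (0.958), Per1 (0.909) and Rgs4 (0.903), and Nr4a3 to Ppp2r5a (0.929), Opa3 (0.923) and Maff (0.918). Nr4a2 was nearest to Qpct (0.932), Nap1l5 (0.908) and Fndc9 (0.900), and Egr2 to Snn (0.843), Dusp5 (0.825) and Fosb (0.811).

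Other immediate early genes were read from a list of 21. At 48 h 7 fell under erinacine S and 0 rose, against 0.115% of all genes tested that fell. The median log2 change was -0.57, against 0.01 for all genes tested. Non-overlapping lower libraries were seen for 14 of the 21 and for 8.74% of all genes tested. Fos, a subunit of the AP-1 factor, went from 33.6 ± 1.47 to 5.67 ± 1.58 TPM (log2 change -2.40, adjusted p 0.000574, limma), and Npas4 changed by -1.61 (adjusted p 0.00135, limma). The AP-1 subunits Jun and Junb changed by -1.31 and -1.24 (adjusted p 0.00215 for both, limma). All 7 also fell without erinacine S 48 h replicate 1, where 12 of the 21 did, against 0.685% of all genes tested. The remaining 3, named after their values were seen, were Arc, whose product controls AMPA receptor traffic, Ier2 and the MAP kinase phosphatase gene Dusp1.

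Activity-induced effector genes respond later than the transcription factors. Of 15 such genes, Vgf fell at 48 h and 0 rose, against 0.115% of all genes tested that fell. Crh also passed but is not counted, for the reason given below. The median log2 change of the 15, Crh included, was -0.40. Without erinacine S 48 h replicate 1, Bdnf, Scg2, Vgf, Adcyap1, Igf1 and Rgs2 fell, against 0.685% of all genes tested. Crh, again not counted, passed there too. The median was then -0.59. Crh, which encodes corticotropin-releasing hormone, went from 3.90 ± 0.865 to 0.177 ± 0.201 TPM (adjusted p 0.00201, limma). Like Egr4 it reached the mean of 1 TPM only through DMSO at 48 h (0.489 TPM over the other groups), so its fall from that group was favoured by the filter. The neuropeptide precursor gene Vgf went from 56.8 ± 10.7 to 29.8 ± 4.39 TPM (adjusted p 0.0413, limma). Bdnf, the neurotrophin gene of this list, stood at 4.72 ± 1.00 and 1.80 ± 0.637 TPM (adjusted p 0.105, limma, and 0.0199 without that library).

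The factors that act upstream gave no call at 48 h. Of all genes tested 0.134% passed there in either direction, so 0 calls in lists this small do not set them apart. None of 13 tested genes of the SRF arm passed (median log2 change -0.05, or -0.10 without erinacine S 48 h replicate 1). Nor did any of 15 genes of the CREB and MEF2 arm (median -0.02, or -0.05 without that library). Of 11 glutamate receptor, vesicular glutamate transporter, calcium channel and calcium kinase genes 0 passed (median 0.04, or -0.02 without that library). The smallest p-values in these lists were those of Map2k2 (log2 change -0.24), Hdac5 (-0.37) and Cacna1d (0.29), none of which passed. Srf itself was at 63.7 ± 3.59 and 59.9 ± 3.77 TPM, and Creb1 at 39.8 ± 1.01 and 40.7 ± 2.29 TPM. Without that library the erinacine S means were 57.8 TPM for Srf and 39.5 TPM for Creb1. These are messenger RNA levels, and the activity of SRF and CREB, which is set by cofactors and phosphorylation, was not measured here.

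Partners and targets of the families gave no call either, which again does not set them apart from all genes tested (0.134% passed in either direction). Of 10 Egr corepressors and reported targets, 9 were tested and 0 passed (median log2 change -0.13). The corepressor genes Nab1 and Nab2 changed by -0.08 and -0.13 (adjusted p 0.824 and 0.861, limma), or -0.17 and 0.06 without erinacine S 48 h replicate 1. Gabra4, a GABA receptor subunit gene and Egr3 target, changed by -0.51 (adjusted p 0.291, limma), or -0.65 without that library (adjusted p 0.0774, limma). Among the 3 retinoid X receptor genes that encode partners of NR4A proteins, Rxrg was at 32.2 ± 2.30 TPM in DMSO and 43.3 ± 13.1 TPM in erinacine S (log2 change 0.38, adjusted p 0.639, limma, and 0.15 without replicate 1, whose absence left a mean of 35.8 TPM), and Rxra and Rxrb changed by 0.00 and -0.04. Without erinacine S 48 h replicate 1, Rxra and Rxrb changed by -0.02 and -0.03. Of 9 Nr4a2 targets known from dopamine neurons, 4 reached a mean of 1 TPM and 0 passed (median -0.07, or -0.14 without that library).

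**Figure D4:**
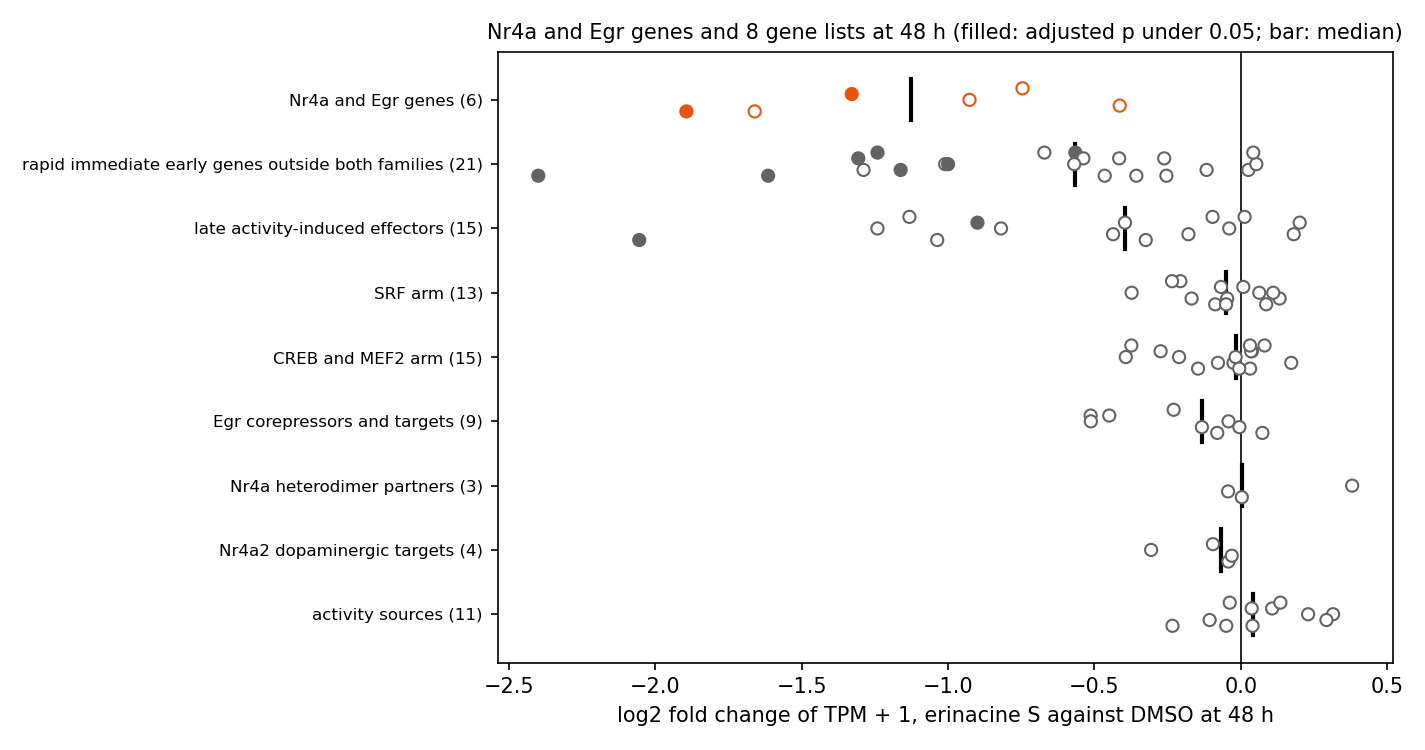
Log2 fold change of TPM + 1 at 48 h, erinacine S against DMSO (horizontal axis), for the 6 tested Nr4a and Egr genes (orange) and the tested genes of 8 lists (grey, number of genes in brackets). Each circle is a gene, filled where the adjusted p is under 0.05, and the bar is the median of the row (-1.13 for the 6 genes, Egr4 included). Filled circles appear only among the Nr4a and Egr genes, the other immediate early genes and the effectors, all below 0.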

How the data were processed

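RNA libraries of the 12 samples kept strand information, per the labels' protocols. The submitters' processing notes name bcl2fastq 2.20, Trimmomatic 0.36, FastQC, HISAT2, SAMtools, StringTie 2.1.3 and the build GRCm38.p5. For the annotation, the release is not given in the sources used here. A table of TPM per gene was deposited, with 0.0001 in place of 0. TPM keep no depth, so the depth of each library is unknown and the spread between libraries is the only error. All 12 columns matched a sample title.

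The test was limma 3.58.1 (R 4.3.3) on log2(TPM + 1) (1 fit with 4 group means, eBayes with a trend, two-sided), for the 15623 genes with a mean of at least 1 TPM, with Benjamini-Hochberg adjustment over these genes and a threshold of 0.05. The fit was tested on simulated data. Fold changes on this scale understate changes of low genes. Egr2, under the filter, was compared by an exact permutation test. Groups were said not to overlap where every library of a group exceeded every library of the other.

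The genes, the 8 gene lists and the 9 marker lists were chosen with earlier results of these data known, so list counts are not independent evidence. The SRF list has 15 symbols, 2 of them other names of genes already counted. By rule, named were the 7 genes, the 3 most alike genes for each, and up to 4 genes a list by p at 48 h. Not every gene picked by p is printed. Named outside this rule were Srf, Creb1, Nab1, Nab2, Th, Tubb3, Arc, Ier2, Dusp1, Scg2, Igf1 and Rgs2. Between DMSO and erinacine S, deviations of same-numbered libraries correlated at 0.480, 0.185 and 0.510 at 16 h. Those of differently numbered libraries ran from -0.448 to 0.109. At 48 h the same-numbered values were -0.022, 0.107 and -0.192, and the others ran from -0.173 to 0.201. Whether the numbers pair libraries was not tested. Alternatives tried: pseudocounts of 0.1 and 5, no filter or a filter at 5 TPM, median-ratio scaling, quantile normalization, leaving mitochondrial transcripts out of TPM, a replicate block, other eBayes settings, library weights, only the libraries compared, and leaving out each library. List counts without erinacine S 48 h replicate 1 were added after seeing the data.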

Additional observations from a re-analysis of the deposited data

How the results depend on the processing

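With no call at 16 h in any alternative, the count of Nr4a and Egr genes that passed changed as follows. These counts take in Egr4 where it passed, although the filter favoured its difference from DMSO at 48 h. Erinacine S against DMSO at 48 h, with 2, gave 1 (Nr4a1) with a pseudocount of 0.1, with no filter and with eBayes without a trend, 6 with a weight for each library, 3 (Nr4a3 too) with median-ratio scaling, quantile normalization or the replicate block within each time, and 1 to 5 when a library was left out. The 6 were all the genes tested, Egr4 included. The 5, without erinacine S 48 h replicate 1, were Nr4a1, Nr4a3, Egr1, Egr3 and Egr4, or 4 with Egr4 not counted. Nr4a1 alone passed in 8 of the 12 fits that left out a library. With only the libraries compared the count stayed at 2, with Nr4a3 in place of Egr1. The difference between the effects, with 0, gave 1 (Nr4a1, adjusted p 0.00782, limma) with library weights and 0 in the fits without a library. In DMSO over time, with 3 (Egr4 included, or 2 with Egr4 not counted), leaving out a library gave 1 to 4, Egr4 included where it passed. In erinacine S over time, with 2, the count was 1 with a pseudocount of 5, median-ratio scaling, the replicate block or no trend, 0 with no filter or only the libraries compared, and 0 to 1 when a library was left out. The cause was not tested.

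With the replicate block the 48 h call of Egr1 had an adjusted p of 0.0394 (limma) and that of Nr4a1 one of 0.00572. There 13 genes passed in place of 21. With the block within each time 17 passed, with adjusted p-values of 0.0066 for Nr4a1 and 0.0164 for Nr4a3 and Egr1 (limma). Over all genes, 48 h gave 21 calls, 1599 with library weights, 12 with only the libraries compared and 9 to 114 when a library was left out. The difference between effects gave 0 and 14 with weights, and 1 with a pseudocount of 0.1 or the block within each time. With no filter 2 genes passed at 16 h. Time in DMSO gave 5107 and 3401 without DMSO 48 h replicate 1, and time in erinacine S 4783, 9338 with weights and 3110 without erinacine S 16 h replicate 2. The block within each time could not be fitted for the comparisons over time.

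Some log2 changes that had not passed reversed. When a library was left out, Egr3 at 16 h ran from -0.22 to 0.059, the difference between effects of Nr4a2 from -0.39 to 0.057, and, over time in erinacine S, Nr4a2 from -0.28 to 0.17, Egr3 from -0.36 to 0.038 and Egr4 from -0.25 to 0.13. With quantile normalization Egr4 over time in erinacine S was 0.25. A filter at 5 TPM leaves no value for Egr3 and Egr4.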

Other observations

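Over time in DMSO, 16.1% of the genes tested rose from 16 h to 48 h and 16.6% fell. Of the 21 other immediate early genes 5 rose and 3 fell, and of the 15 effector genes 7 rose and 2 fell. The 15 include Crh, whose higher level in DMSO at 48 h was favoured by the filter, so the count of 7 is not free of it. In erinacine S 15.1% of the genes tested rose and 15.5% fell, against 0 and 7 of the 21, and 3 and 3 of the 15. Of the 11 genes of glutamate and calcium entry 5 rose and 2 fell in DMSO, and 7 rose and 1 fell in erinacine S. These lists do not test whether the time courses differ. The comparisons over time share their libraries with those of treatment.

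Th, which encodes the rate-limiting enzyme of dopamine synthesis and is a target of Nr4a2, had a mean of 1.147 ± 0.408 TPM in DMSO and 0.667 ± 0.247 TPM in erinacine S at 48 h (SD, n = 3) and was under the filter. The microglial gene C1qc, a complement component, fell at 48 h under erinacine S, from 3.71 ± 1.31 to 0.688 ± 0.426 TPM (log2 change -1.48, adjusted p 0.0413, limma). It was the only 1 of the 9 microglial markers to pass, with 5 tested, against 0.115% of all genes tested that fell. Without erinacine S 48 h replicate 1, 3 passed, against 0.685% of all genes tested that fell.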
